A study of Mus musculus with 7 samples.

Results

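The genes described here encode the machinery that fuses secretory vesicles with their target membrane: the SNARE proteins (syntaxins, SNAP-25 relatives and VAMPs), the synaptotagmins and synaptotagmin-like proteins, and the complexins, RIM, Munc13 and Doc2 proteins that prepare vesicles or hold them ready. They were chosen by a rule on the symbol, set with earlier results of these data known. The rule took the names Syt, Sytl, Stx, Vamp, Snap, Cplx, Rims, Unc13 and Doc2 with their number or letter, and 59 of the 19498 named genes of the array met it. Expression was measured in β-cells of 2-week-old mice on Affymetrix Clariom S arrays, 4 from Raptor knockout mice (KO) and 3 from wild type mice (WT), all labelled C57BL/6 with islet as the tissue. The study's methods give the genotypes as Raptor-/- for KO and Raptor+/+ for WT, and both carried RIP-Cre, a recombinase under control of the rat insulin promoter, and Rosa26 GFP, the reporter by which the cells were sorted. The methods describe the RIP-Cre line as of mixed background, C57BL/6 and a second strain, which the label does not show. Raptor is the subunit that defines mTOR complex 1, and the mice were male. Each array held RNA pooled from several animals, and p-values measure the spread between these pools. The comparison asks how the vesicle fusion genes stood when Raptor was missing, at an age at which the study describes the mice as not yet hyperglycemic.

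As background, insulin granules fuse when a VAMP on the granule pairs with a syntaxin and a SNAP-25 family protein on the plasma membrane into a bundle of helices. Munc13 and Munc18 proteins open and guide the syntaxin, complexins clamp and then promote the assembled bundle, and synaptotagmins with calcium-binding C2 domains couple it to calcium entry. Other syntaxins and VAMPs serve the Golgi, endosomes and lysosomes, where the same helices carry traffic that is not triggered by calcium.

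All values below are quantile-normalized signals on the log2 scale. A difference is the mean of the 4 KO arrays less that of the 3 WT arrays, with its SE from limma. Signals of different probe sets are not set against each other as amounts of RNA. The β-cell genes Ins2 (19.91 on all 7 arrays) and Slc30a8 (17.55 to 18.93 in KO, 18.93 to 19.41 in WT) were bright, and so was the α-cell hormone gene Gcg (19.91 on all 7 arrays), while the β-cell factor Mafa was dim on every array (3.44 to 3.80). Of the other α-cell markers measured, Ttr was bright (18.11 to 19.41), Irx2 lay at 5.52 to 6.42 and Irx1 was dim (3.27 to 4.11). The δ-cell hormone gene Sst (17.83 to 19.91) and the pancreatic polypeptide gene Ppy (15.85 to 19.57) were bright as well. The value 19.91 is the top of the scale after normalization, so Ins2 and Gcg cannot be compared between arrays or with each other. Rptor itself was 5.99, 5.96, 4.40 and 8.54 on KO replicates 1 to 4, against 5.98, 5.26 and 6.08 in WT, and was not lower in KO. The exons covered by its probes are unknown here, so Rptor checks neither genotype. Slc2a2, the β-cell glucose transporter gene, named after its values were seen, was lower on every KO array (15.43, 14.67, 14.36 and 13.25) than on any WT array (16.64, 16.29 and 16.19), with a limma unadjusted p of 0.00416. It did not pass adjustment, and 1.95 percent of all transcript clusters were likewise lower on every KO array. For Slc30a8 the difference was -0.96 (limma unadjusted p = 0.0359), which did not pass adjustment either. KO replicates 1, 3 and 4 lay below every WT array, and KO replicate 2 was level with the lowest, at 18.93. Calls of lower genes at an unadjusted p of 0.05 made up 1.17 percent of all transcript clusters. The groups overlapped for the others: Pdx1 differed by -0.835, Ucn3 by -0.81, G6pc2 by -0.69, Nkx6-1 by 0.04 and Mafa by 0.18. Iapp was at the top of the scale on every array but KO replicate 3, so its difference of -0.14 cannot be read. WT replicate 3 and KO replicates 3 and 4 were the arrays least like the rest. Their correlations with the 6 others had medians of 0.933, 0.937 and 0.924, and the 4 further arrays had medians of 0.954 to 0.961. Pancreatic acinar genes differed between arrays: the mean of 11 of them, called the acinar score, was 10.60, 14.37, 9.83 and 17.70 on KO replicates 1 to 4 and 12.70, 16.58 and 8.43 on the WT arrays, and its part in the differences between genotypes was tested only as a covariate.

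Most fusion genes differed less between KO and WT than between arrays of a genotype. With limma no gene passed an adjusted p of 0.05, among the 59 or among all 22198 transcript clusters (0 percent called, and 0 with the methods' t-test), and every fusion gene had an adjusted p of 1. At an unadjusted p of 0.05, where 2.18 percent of all transcript clusters were called, 3 of the 59 passed: Unc13a, Syt12 and Stx8, all higher in KO. Calls of higher genes made up 1.01 percent of all transcript clusters and calls of lower genes, of which there were 0 among the 59, 1.17 percent. KO and WT arrays did not overlap for 2 of the 59, Syt12 (higher, as for 1.98 percent of all transcript clusters) and Stx11 (lower, as for 1.95 percent), where 3.93 percent of all were without overlap. The methods' t-test called Stx8, Unc13a and Stx11 before adjustment. In these pools of sorted cells, fewer cells of a type and less RNA per cell cannot be told apart. Of the 59 genes 36 lay above and 23 below WT, with a median difference of 0.06, against 0.00 over all transcript clusters, of which 49.6 percent lay below WT. The count below was 30 and the median -0.02 without WT replicate 3.

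**Figure D1:**
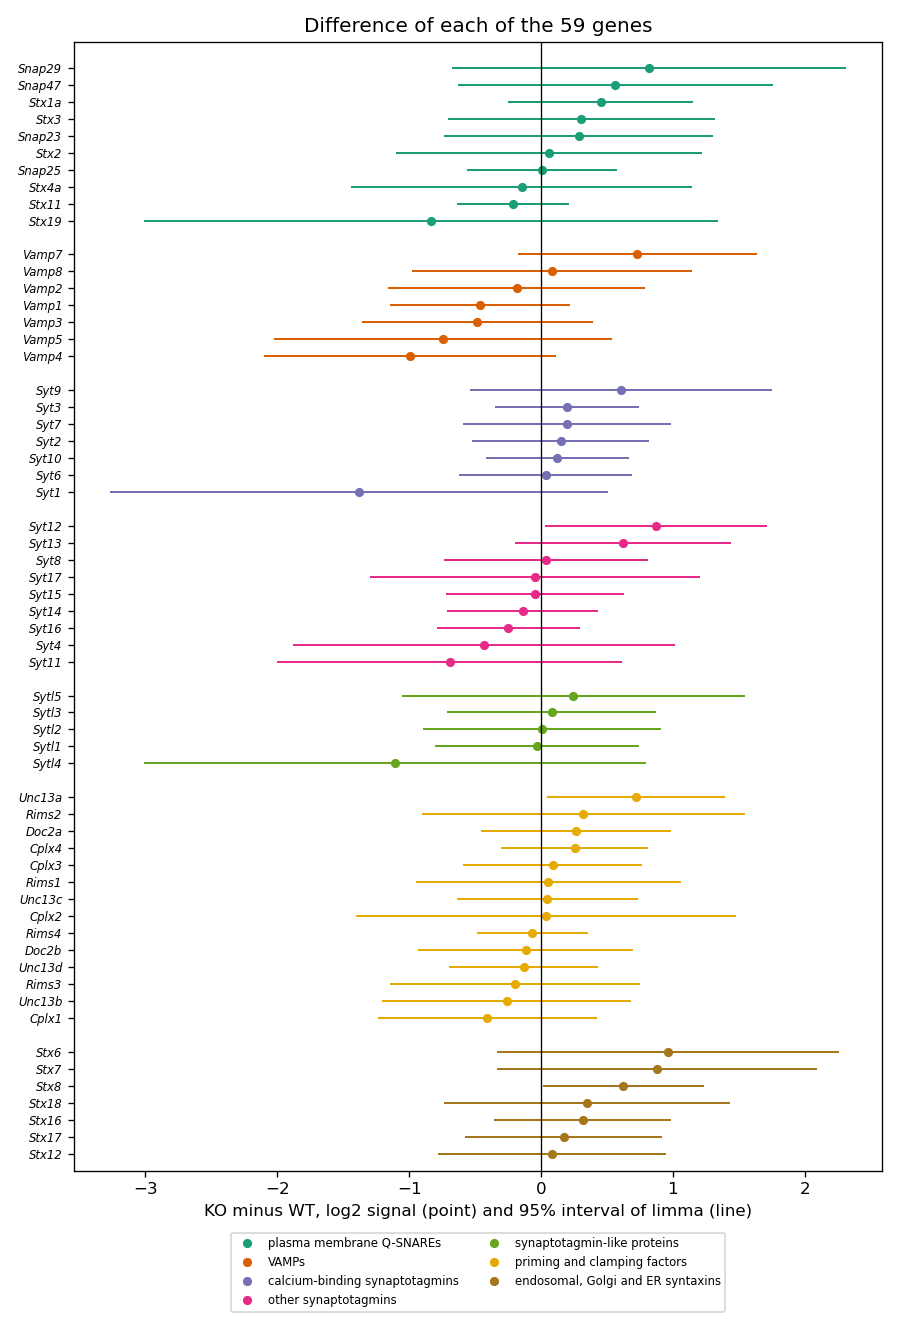
Difference between KO and WT in log2 signal for each of the 59 genes (points) with the 95% interval of limma (lines), grouped and coloured by role. The intervals of Unc13a, Syt12 and Stx8 lie above 0, and the interval of Snap25 runs from -0.56 to 0.57.

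The syntaxins of the plasma membrane and the SNAP-25 family, taken as 1 group, showed no shared direction. Snap25, the partner of syntaxin 1 in regulated exocytosis, was 12.82, 12.93, 13.14 and 12.70 in KO, against 12.72, 13.31 and 12.66 in WT. The 7 values lay within less than a log2 unit and the groups overlapped fully. The difference was 0.01 ± 0.24 (SE), with a 95% interval of -0.56 to 0.57. Snap23, the relative of Snap25 found in most cells, was 12.14, 12.68, 13.11 and 11.97 in KO and 12.72, 12.56 and 11.28 in WT. The WT array at 11.28 was replicate 3, and without it the difference turned, at -0.17, against 0.29 with all arrays.

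Stx1a, the syntaxin of fast calcium-triggered insulin release, was 4.85, 3.92, 4.42 and 3.94 in KO, against 4.16, 3.64 and 3.69 in WT. KO was higher in each of the 3 pairs of equal replicate number, by 0.69, 0.29 and 0.73, yet the groups overlapped. The difference was 0.45 ± 0.30 (SE; limma unadjusted p = 0.167), and 6 of the 35 ways to split the arrays were as extreme (exact two-sided permutation p = 0.171, where the smallest possible is 0.0286). The probe set was dim, at percentile 15.5 of the mean signal, and whether it stood above background is not known. Stx4a, a syntaxin used in insulin release and in glucose transporter traffic of muscle and fat, was 8.01, 7.70, 6.01 and 7.47 in KO, against 7.84, 7.93 and 6.57 in WT. Its low arrays were replicate 3 in both genotypes, and the groups overlapped. The difference was -0.15 ± 0.55 (SE), and it was 0.29 without KO replicate 3.

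Stx11, a syntaxin known from cytotoxic lymphocytes, was 3.81, 3.65, 3.77 and 3.72 in KO and 4.0, 3.98 and 3.87 in WT. Every KO array lay below every WT array, and no other of the 35 splits was as extreme (exact permutation p = 0.0286, the smallest possible). KO was lower in all 3 pairs. The difference was small, at -0.21 ± 0.18 (SE), on a probe set at percentile 9.13 of all transcript clusters, and limma gave an unadjusted p of 0.271 while the methods' t-test gave 0.00976 before adjustment. Snap47, a SNAP-25 relative of internal membranes, was 9.16, 9.17, 10.12 and 9.81 in KO, against 8.46, 8.32 and 10.23 in WT. A single WT array, replicate 3, lay above all KO arrays, and the other WT arrays lay below them. The difference of 0.56 (limma unadjusted p = 0.302) became 1.18 without WT replicate 3 (unadjusted p = 0.0131). The other genes of this group, Snap29, Stx2 and Stx19, differed by -0.83 to 0.82, and over all 10 genes 7 lay above and 3 below WT.

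**Figure D2:**
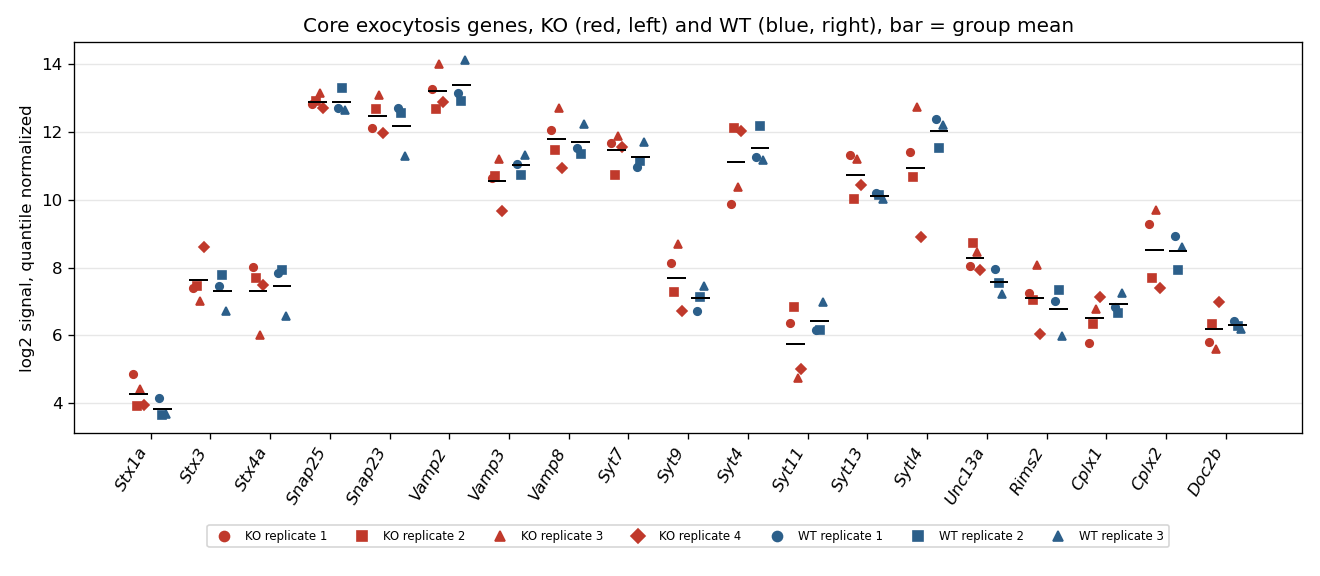
Log2 signal of 19 genes of regulated insulin exocytosis on each array, KO in red at the left and WT in blue at the right of each gene, with a bar at the group mean and a marker shape for each replicate number. Snap25 was within 12.66 to 13.31 on all arrays, while Sytl4 ran from 8.90 to 12.75.

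The VAMPs, the SNAREs carried by the vesicle, lay mostly below WT: 5 of 7 did, with a median difference of -0.46 that shrank to -0.02 without WT replicate 3, and 0 passed an unadjusted p of 0.05 with limma or with the methods' t-test. Vamp2, the main VAMP of insulin granules, was 13.28, 12.68, 14.01 and 12.89 in KO, against 13.15, 12.93 and 14.12 in WT. Replicate 3 was the high array in both genotypes and the difference was -0.18 ± 0.42 (SE). Vamp3, which can act beside Vamp2 in β-cells and serves recycling endosomes, was 10.64, 10.72, 11.21 and 9.67 in KO and 11.05, 10.75 and 11.33 in WT. KO was lower in all 3 pairs, by 0.40, 0.03 and 0.12, and the groups overlapped (difference -0.48 ± 0.37, SE).

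Vamp4, a VAMP of the trans-Golgi network and endosomes, had the lowest p of the VAMPs. It was 12.33, 12.86, 12.17 and 11.06 in KO, against 13.23, 13.62 and 12.43 in WT. Of the KO arrays 3 lay below every WT array, KO replicate 2 lay between them, and KO was lower in all 3 pairs, by 0.91, 0.77 and 0.26. The difference was -0.99 ± 0.47 (SE), or 1.99-fold, with a limma unadjusted p of 0.0699, and 5 of the 35 splits were as extreme (exact permutation p = 0.143). With array weights on all 7 arrays the difference was -0.94 (unadjusted p = 0.0381), which called Vamp4 lower. Without WT replicate 3 the unadjusted p was 0.0345 and without KO replicate 2 it was 0.0341, while without WT replicate 2 it was 0.219 and without WT replicate 1 it was 0.154. Vamp7, a VAMP of late endosomes and lysosomes that was chosen for mention after its values were seen, went the other way at 0.73 ± 0.39 (SE), with 10.63, 11.26, 11.77 and 11.31 in KO against 11.14, 10.56 and 9.82 in WT. KO replicate 1 fell among the WT values, and the limma unadjusted p was 0.0966.

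Among the synaptotagmins, 1 of 16 passed a limma unadjusted p of 0.05, where 2.18 percent of all transcript clusters were called. Syt7, a high-affinity calcium sensor of insulin granules, was 11.69, 10.74, 11.88 and 11.55 in KO, against 10.96, 11.14 and 11.71 in WT. The lowest and the highest array were both KO, and the difference was 0.19 ± 0.34 (SE) with a 95% interval of -0.59 to 0.98. Syt9, a calcium sensor described in β-cell lines, was 8.15, 7.27, 8.71 and 6.71 in KO and 6.71, 7.13 and 7.46 in WT. KO was above WT in all 3 pairs, by 1.44, 0.14 and 1.25. KO replicate 4, which has no WT array of equal number, was as low as the lowest WT array. The difference was 0.61 ± 0.49 (SE; limma unadjusted p = 0.25). A fixed block for the replicate number, under which KO replicate 4 carries no weight, gave 0.94 (unadjusted p = 0.0402). Syt3, Syt10, Syt2 and Syt6, the remaining calcium binders beside Syt1, differed by 0.04 to 0.20.

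Syt12, a synaptotagmin without the calcium-binding residues, was 6.24, 6.43, 7.25 and 7.59 in KO, against 5.89, 6.08 and 6.05 in WT. All 4 KO arrays lay above all WT arrays, and the higher pair were replicates 3 and 4, the KO arrays least like the rest. The means were 6.88 ± 0.645 in KO and 6.01 ± 0.102 in WT (SD, n = 4 and 3). The difference was 0.87 ± 0.36 (SE), or 1.83-fold, with a limma unadjusted p of 0.0429, and 3 of the 35 splits were as extreme (exact permutation p = 0.0857). With the replicate number as a fixed block, under which KO replicate 4 carries no weight, it was 0.64 (unadjusted p = 0.0777), and as a random block over all 7 arrays it was 0.83 (unadjusted p = 0.038), so that only the fixed block ended the call. The call was lost without WT replicate 1, 2 or 3 or KO replicate 3 or 4, with unadjusted p from 0.0801 to 0.111, and on the 4 arrays most alike the difference was 0.38 (unadjusted p = 0.196).

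Syt13, an atypical synaptotagmin that marks endocrine cells of the developing pancreas, was 11.32, 10.01, 11.20 and 10.43 in KO and 10.20, 10.13 and 10.03 in WT. The WT arrays lay within 0.2 of each other, 3 KO arrays lay above them all, and KO replicate 2 lay below them. The difference was 0.62 ± 0.35 (SE; limma unadjusted p = 0.115), and without KO replicate 2 it was 0.86 (unadjusted p = 0.0261). Syt4, a synaptotagmin linked to the maturation of calcium-triggered insulin secretion in mice, was 9.88, 12.13, 10.39 and 12.02 in KO, against 11.25, 12.19 and 11.18 in WT. KO held a low pair, replicates 1 and 3, and a high pair, replicates 2 and 4, which lay near the highest WT array. KO was lower in all 3 pairs, by 1.37, 0.06 and 0.79, and the difference was -0.43 ± 0.62 (SE). Syt11, which does not bind calcium and acts in vesicle retrieval, was 6.37, 6.83, 4.73 and 5.0 in KO and 6.15, 6.15 and 6.98 in WT. Here KO replicates 3 and 4 were the low arrays, and the difference of -0.69 turned to 0.49 on the 4 arrays most alike. Syt14 differed by -0.14 and Syt8, Syt15, Syt16 and Syt17 by -0.25 to 0.04.

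Of the synaptotagmin-like proteins, which bind Rab27 and tether granules, Sytl4 differed most. Sytl4 encodes granuphilin, which docks insulin granules by binding Rab27a and syntaxin 1a. It was 11.42, 10.67, 12.75 and 8.90 in KO, against 12.37, 11.53 and 12.22 in WT. KO replicate 3 was the highest of all arrays and KO replicate 4 the lowest. The difference was -1.11 ± 0.81 (SE; limma unadjusted p = 0.213), and 12 of the 35 splits were as extreme (exact permutation p = 0.343). It was -1.72 without KO replicate 3 (unadjusted p = 0.036) and -0.43 without KO replicate 4. Sytl5, which also binds Rab27, was 9.77, 9.93, 10.97 and 8.65 in KO and 9.87, 10.04 and 8.83 in WT. KO replicate 3 was again the high array and KO replicate 4 the low one (difference 0.25 ± 0.55, SE). Sytl1, Sytl2 and Sytl3 differed by -0.03 to 0.08.

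The priming and clamping genes were level as a group, with 8 of 14 above and 6 below WT and a median of 0.04. Unc13a, which encodes the priming factor Munc13-1, was 8.06, 8.73, 8.46 and 7.94 in KO, against 7.96, 7.55 and 7.23 in WT. All KO arrays lay above all WT arrays but for KO replicate 4, which was 0.02 below WT replicate 1, and KO was higher in the 3 pairs by 0.10, 1.18 and 1.24. The means were 8.30 ± 0.365 in KO and 7.58 ± 0.368 in WT (SD, n = 4 and 3). The difference was 0.72 ± 0.29 (SE), or 1.65-fold, with a limma unadjusted p of 0.0379, and 3 of the 35 splits were as extreme (exact permutation p = 0.0857). With the replicate number as a fixed block it was 0.84 (unadjusted p = 0.0495) and as a random block 0.74 (unadjusted p = 0.0287). The call was lost without WT replicate 2 or 3 or KO replicate 2 or 3, with unadjusted p from 0.0758 to 0.128. Unc13b, which encodes Munc13-2, had no such difference, at 9.84, 9.65, 10.76 and 8.96 in KO against 9.93, 10.09 and 10.16 in WT. The KO arrays lay on both sides of the narrow WT range.

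Rims2, which encodes a scaffold that links Rab3 on granules to calcium channels and Munc13, was 7.26, 7.03, 8.08 and 6.03 in KO and 7.03, 7.33 and 5.98 in WT. The groups overlapped (difference 0.32 ± 0.52, SE). Cplx1, a complexin, was 5.78, 6.33, 6.79 and 7.12 in KO, against 6.83, 6.66 and 7.25 in WT. KO was lower in all 3 pairs, by 1.05, 0.33 and 0.46, and the difference was -0.41 ± 0.35 (SE; limma unadjusted p = 0.283). Cplx2, its close relative, was 9.30, 7.70, 9.70 and 7.39 in KO and 8.93, 7.92 and 8.60 in WT. The KO arrays formed a high pair, replicates 1 and 3, and a low pair, replicates 2 and 4, on either side of WT, with a mean difference of 0.04. Doc2b, a calcium-binding C2 protein that assists SNARE assembly, differed by -0.12 ± 0.35 (SE). The other 8 genes of this group differed by -0.20 to 0.27.

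The syntaxins of endosomes, the Golgi and the endoplasmic reticulum were the only group with every gene on one side: all 7 were above WT, with a median of 0.35. The calcium-binding synaptotagmins were near this, with 6 of 7 above WT and a median of 0.15. Of the 7 syntaxins 1 passed a limma unadjusted p of 0.05, where 2.18 percent of all transcript clusters were called. A single array carried much of the one-sided direction of these syntaxins. WT replicate 3 was the lowest of all 7 arrays for 5 of the 7 genes, and without it the median was 0.18. Stx7, a syntaxin of late endosomes, was 9.77, 9.77, 9.92 and 10.02 in KO, against 9.78, 9.61 and 7.58 in WT. The KO arrays lay within 0.25 of each other and beside WT replicates 1 and 2, and WT replicate 3 lay far below both. The difference of 0.88 (limma unadjusted p = 0.129) was 0.18 without WT replicate 3. Stx6, a syntaxin of the trans-Golgi network chosen after its values were seen, had the same form, with 7.33, 7.39, 7.87 and 8.27 in KO and 7.37, 7.54 and 5.35 in WT.

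Stx8, which pairs with Stx7 in endosomal fusion, was 8.22, 7.91, 8.21 and 8.27 in KO, against 7.60, 7.93 and 7.06 in WT. Of the KO arrays 3 lay above all WT arrays, and KO replicate 2 lay just under WT replicate 2. The means were 8.15 ± 0.162 in KO and 7.53 ± 0.441 in WT (SD, n = 4 and 3). The difference was 0.63 ± 0.26 (SE), or 1.54-fold, with a limma unadjusted p of 0.0431, and 2 of the 35 splits were as extreme (exact permutation p = 0.0571). The blocks for the replicate number differed: the fixed block, which leaves KO replicate 4 without weight, gave 0.59 (unadjusted p = 0.116) and the random block over all arrays 0.62 (unadjusted p = 0.0378). The call was lost without WT replicate 1 or 3 or KO replicate 1, 3 or 4, with unadjusted p from 0.0747 to 0.154. On the 4 arrays most alike the difference was 0.31 (unadjusted p = 0.314). On all 7 arrays the call was also lost with values as deposited (limma unadjusted p = 0.0733) and with median centring (0.0861). Both filters, trend and robust variances (0.132) and array weights (0.110) ended it too, and cyclic loess kept it. Stx16, of the trans-Golgi network, differed by 0.32, Stx18, of the endoplasmic reticulum, by 0.35 (and by -0.16 without WT replicate 3), Stx17, of autophagosomes, by 0.17 and Stx12, of recycling endosomes, by 0.08.

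**Figure D3:**
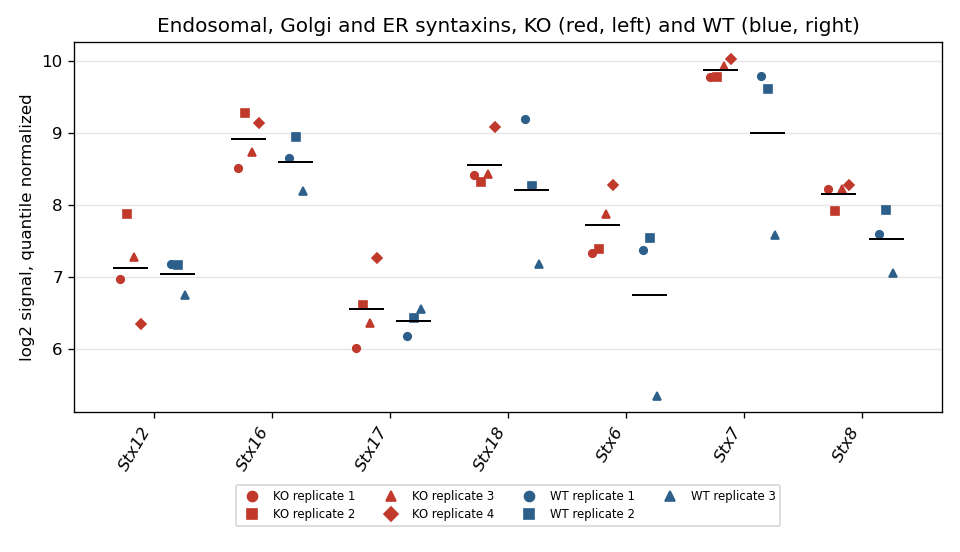
Log2 signal of the 7 syntaxins of endosomes, Golgi and endoplasmic reticulum on each array, KO in red at the left and WT in blue at the right, with a bar at the group mean. WT replicate 3 (blue triangle) is at 7.58 for Stx7 and 5.35 for Stx6, below every other array.

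The start regions of Unc13a and Stx8 are shown because these are the called genes for which RefSeq gave a promoter here. Each line gives the 250 bases before the transcription start, 5′ to 3′ on the gene's strand (GRCm38.p6; Unc13a at chr8:71671758-71672007, minus strand, and Stx8 at chr11:67966208-67966457, plus strand). Capitals mark matches on either strand to any of 5 motifs. The GC box was searched as GGGCGG. The TATA box was searched as TATAAA, and the CCAAT box by the letters of its name. The E-box was searched as CACGTG, and the cyclic AMP response element was searched as TGACGTCA.
Unc13a: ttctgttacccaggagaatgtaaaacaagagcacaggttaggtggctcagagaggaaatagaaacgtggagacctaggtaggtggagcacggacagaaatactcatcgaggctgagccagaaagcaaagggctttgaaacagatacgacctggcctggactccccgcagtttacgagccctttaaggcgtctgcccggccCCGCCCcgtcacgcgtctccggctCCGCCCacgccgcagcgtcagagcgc
Stx8: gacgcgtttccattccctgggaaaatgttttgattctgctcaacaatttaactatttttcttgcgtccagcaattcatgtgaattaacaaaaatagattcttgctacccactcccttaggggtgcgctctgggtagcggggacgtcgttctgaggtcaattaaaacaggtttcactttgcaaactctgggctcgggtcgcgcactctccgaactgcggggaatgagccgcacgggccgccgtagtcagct
Unc13a holds 2 GC boxes and Stx8 none of the motifs. RefSeq promoters were matched for 43 of the 59 genes, with 53 start sites in all. Of these 58.5 percent held a GC box, against 32.7 percent of all 32851 promoters, 3.77 percent held a TATA box, against 12.4 percent, and 13.2 percent held an E-box, against 6.02 percent. CCAAT was found in 28.3 percent, against 33.8 percent, and the cyclic AMP response element in 0, against 1.55 percent. These are matches of letters within the window and not sites of binding.

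A second pattern ran across the arrays and not between the genotypes: several fusion genes followed the acinar score. This was seen in the data and then computed, with Pearson's r and Spearman's rho over the 7 arrays for each of the 59 genes and exact permutation p over 5040 orders. The p-values come from the arrays on which the relation was seen, so they describe it and do not test it. Their adjustment covers the 59 genes and not all transcript clusters. The 11 acinar genes are digestive enzymes that a sort for β-cells should leave behind. An absolute r of 0.8 or more was reached by 10.2 percent of the fusion genes, 2 of them positive and 4 negative, and by 4.85 percent of all transcript clusters.

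Stx3, a syntaxin known from zymogen granules of acinar cells and also found on insulin granules, was ordered exactly as the score. It was 7.39, 7.47, 7.02 and 8.61 on KO replicates 1 to 4, against 7.45, 7.78 and 6.71 in WT, and so highest where acinar genes were highest, in KO replicate 4, and lowest in WT replicate 3. Pearson's r was 0.916 (exact permutation p = 0.000198, the smallest possible, and 0.0117 adjusted over the 59 genes). Spearman's rho was 1.0 (exact p = 0.000397, adjusted 0.0234). Without the 2 arrays farthest from the median score, KO replicate 4 and WT replicate 3, r was 0.903. Its difference between genotypes was 0.31 with all arrays and -0.02 without KO replicate 4.

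Vamp8, a VAMP of zymogen granules in acinar cells that also acts on newly arriving insulin granules, ran the opposite way. It was 12.07, 11.46, 12.72 and 10.93 in KO, against 11.53, 11.35 and 12.25 in WT. The low array was KO replicate 4, which had the highest acinar score, and the high ones were the replicates 3, which had the lowest. Its r was -0.911 (exact permutation p = 0.00575, adjusted 0.17) and rho -0.964 (exact p = 0.00278, adjusted 0.0819), with r at -0.876 without the 2 arrays. Only Stx3 stayed below 0.05 after adjustment over the 59 genes.

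An exact p below 0.05 for r before adjustment was reached by 8 of the 59 genes, or 13.6 percent, and by 8.7 percent of all transcript clusters, and besides Stx3 and Stx16 all had a negative r. Vamp2 had an r of -0.85 (exact permutation p = 0.0169) and a rho of -0.893 (exact p = 0.0123), with r at -0.798 without the 2 arrays. Cplx2 had an r of -0.81 (exact permutation p = 0.0365) and a rho of -0.75 (exact p = 0.0663), with r at -0.922 without them. For Sytl4 r was -0.751 (exact permutation p = 0.0385) and rho -0.679 (exact p = 0.11), but r was -0.53 without the 2 arrays, and for Vamp3 r was -0.783 with all arrays (exact permutation p = 0.0202, rho -0.75 with exact p = 0.0663) and -0.457 without those 2. Sytl1 had an r of -0.805 (exact permutation p = 0.0302, rho -0.786 with exact p = 0.048, r -0.769 without the 2 arrays) and Stx16 one of 0.821 (exact permutation p = 0.026, rho 0.786 with exact p = 0.048, r 0.649 without them). Syt4, whose KO values fell into a high and a low pair, had an r of 0.772 (exact permutation p = 0.0522) and a rho of 0.75 (exact p = 0.0663), with r at 0.926 without the 2 arrays. The adjusted p lay at 0.17 or above for r and at 0.0819 or above for rho in each of these genes but Stx3.

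The permutations treat the 7 arrays as exchangeable and leave out the replicate number, with which the acinar score also ran. The mean of the 11 genes was high on both replicates 2 and low on both replicates 3. Within the pairs, KO minus WT was -2.10, -2.21 and 1.40 for the score. For Stx3 it was -0.06, -0.31 and 0.30, and so of the same sign in 3 of 3 pairs. For Vamp8 it was 0.54, 0.11 and 0.47, opposite in sign to the score in 2 of 3 pairs. Of the other 6 genes with a p below 0.05, Vamp2 and Stx16 kept the sign of their r in 2 of 3 pairs, Vamp3 and Cplx2 in 1 and Sytl1 and Sytl4 in 0. With 3 pairs no test of the relation within replicate numbers was made, and each genotype alone has too few arrays.

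The start regions of Stx3 and Vamp8 are shown as the pair that followed the acinar score in opposite directions, in the same form as above (GRCm38.p6; Stx3 at chr19:11819404-11819653 and Vamp8 at chr6:72390668-72390917, both on the minus strand).
Stx3: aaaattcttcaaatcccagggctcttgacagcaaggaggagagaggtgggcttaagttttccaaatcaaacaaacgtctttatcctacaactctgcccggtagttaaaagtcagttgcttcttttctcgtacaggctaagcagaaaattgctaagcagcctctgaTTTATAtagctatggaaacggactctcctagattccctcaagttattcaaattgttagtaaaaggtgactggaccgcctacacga
Vamp8: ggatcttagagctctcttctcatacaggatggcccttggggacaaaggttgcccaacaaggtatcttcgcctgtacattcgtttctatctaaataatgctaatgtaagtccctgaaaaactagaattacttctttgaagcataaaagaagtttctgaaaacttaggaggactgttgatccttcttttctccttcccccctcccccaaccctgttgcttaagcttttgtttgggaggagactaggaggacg
Stx3 holds 1 match to the TATA box, on the opposite strand, and Vamp8 holds none of the motifs.

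**Figure D4:**
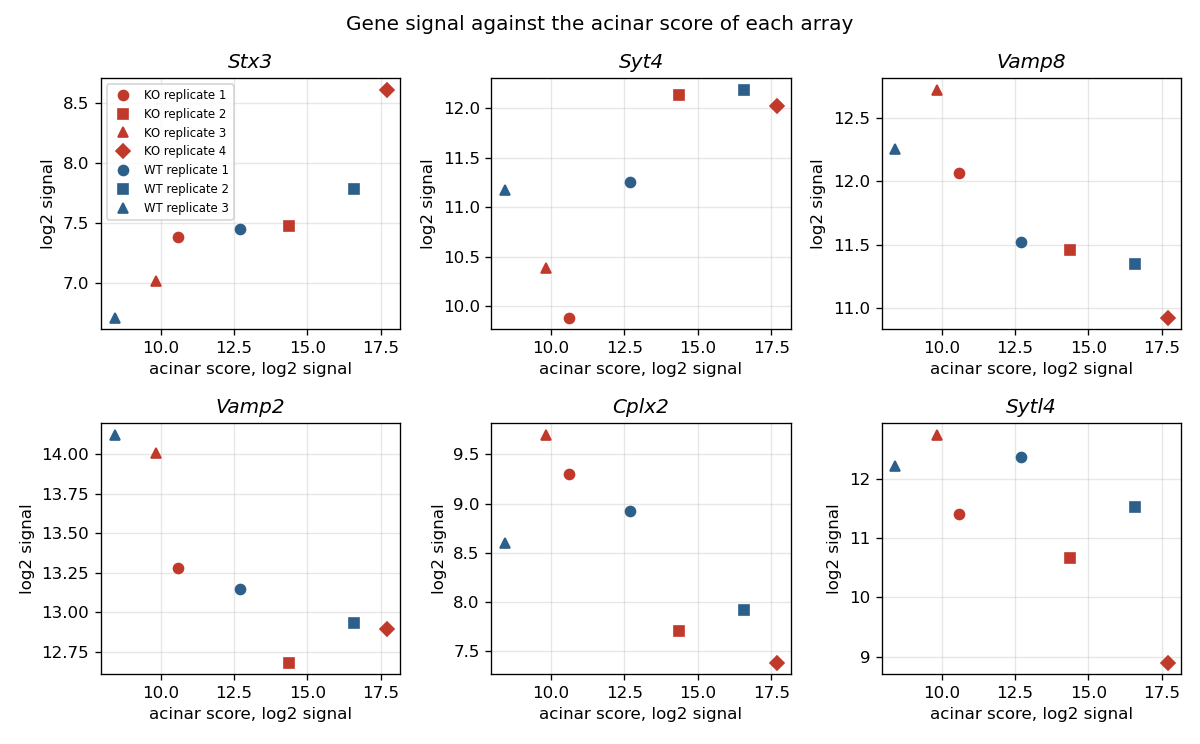
Log2 signal of Stx3, Syt4, Vamp8, Vamp2, Cplx2 and Sytl4 (vertical axes) against the acinar score of the array, the mean log2 signal of 11 acinar genes (horizontal axes), KO in red and WT in blue with a marker shape for each replicate number. Stx3 is highest in KO replicate 4 and lowest in WT replicate 3, and Vamp8 is lowest in KO replicate 4.

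With the acinar score as a covariate the difference of Stx8 was 0.60 (limma unadjusted p = 0.0492), that of Syt12 0.85 (unadjusted p = 0.0561) and that of Unc13a 0.72 (unadjusted p = 0.0539). The sizes moved by less than 0.05 in each case. The count of fusion genes at an unadjusted p of 0.05 was then 1, against 3 without the covariate, while the count over all transcript clusters was 546 (2.46 percent), against 484.

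Some genes were set by a single array. Syt1, the calcium sensor of fast release in neurons and chromaffin cells, was 5.93, 5.64, 4.72 and 4.52 in KO, against 5.71, 5.37 and 8.67 in WT. Only WT replicate 3 stood high, and the difference of -1.38 ± 0.81 (SE; limma unadjusted p = 0.128) was -0.34 without it. Vamp5, known from muscle, and Syt17, both chosen after their values were seen, were likewise highest on WT replicate 3, Vamp5 at 7.46 against 4.87 to 5.64 on the KO arrays and 5.33 and 5.27 on the other WT arrays. Genes of catecholamine synthesis, which mark chromaffin cells and sympathetic neurons, were high on that array as well. Dbh, the dopamine β-hydroxylase gene, was 5.32, 6.44, 5.17 and 4.97 in KO, against 4.94, 5.35 and 14.24 in WT. Th, the tyrosine hydroxylase gene, was 8.75, 7.51, 6.97 and 8.66 in KO and 8.46, 8.67 and 11.69 in WT. The mean of the 4 glial and neuronal markers measured was 5.52 to 5.93 in KO, against 5.79, 5.85 and 9.42 in WT. These markers include Dbh and Th, which made most of the high mean on WT replicate 3. The others, Sox10 and S100b, were also highest on that array, but by less. Sox10 was 6.68 there and at most 5.87 on the other arrays, and S100b was 5.09 and at most 4.39. The part of chromaffin cells or sympathetic neurons in the Syt1 difference was not tested. Over the 59 genes, KO replicate 4 and WT replicate 3 were each the lowest array for 15, and KO replicate 3 was the highest for 20. These were the arrays least like the rest. The same counts were not made over all transcript clusters, so they cannot be read as particular to the fusion genes.

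**Figure D5:**
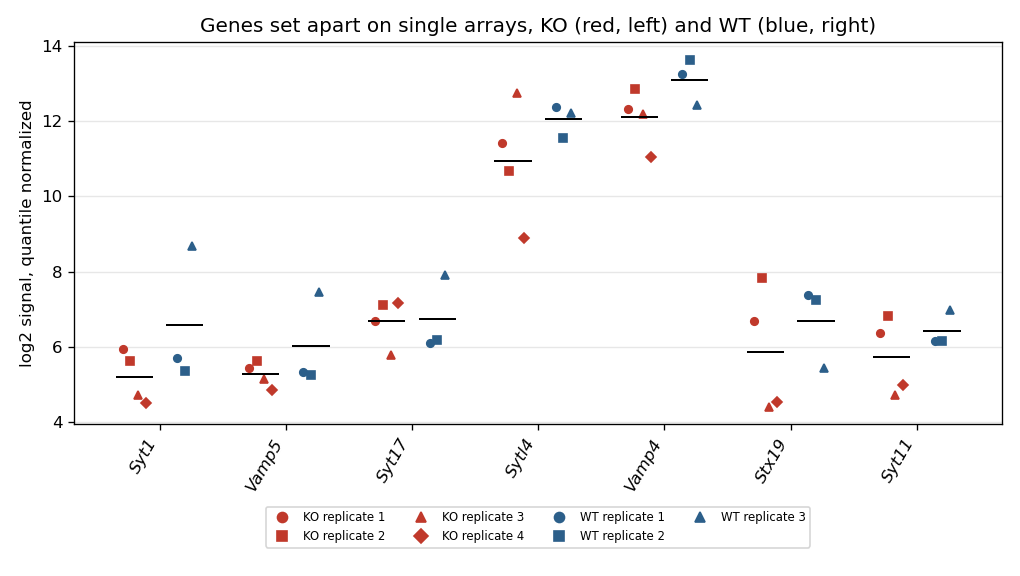
Log2 signal of Syt1, Vamp5, Syt17, Sytl4, Vamp4, Stx19 and Syt11 on each array, KO in red at the left and WT in blue at the right, with a bar at the group mean. Syt1 and Vamp5 are high on WT replicate 3 alone, at 8.67 and 7.46, and Sytl4 is lowest on KO replicate 4, at 8.90.

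Over the 7 arrays the fusion genes varied by a median SD of 0.544, against 0.427 for all transcript clusters, and 4 of the 59 (6.78 percent) had an SD above 1, against 10.1 percent. Rims4, which encodes a short RIM protein and was chosen after its values were seen, varied least, with 5.26, 5.35, 5.19 and 5.31 in KO and 5.36, 5.28 and 5.39 in WT. Stx19, a syntaxin without a membrane anchor that was also chosen after its values were seen, varied most, with 6.68, 7.83, 4.41 and 4.53 in KO and 7.39, 7.26 and 5.45 in WT. It was low on replicates 3 and 4 in KO and on replicate 3 in WT, so that the split ran across the genotypes. For 24 of the 59 genes the 95% interval of the difference stayed within 1 log2 unit of 0. KO was on one side of WT in all 3 numbered pairs for 27.1 percent of the fusion genes, 9 higher and 7 lower, and for 24.5 percent of all transcript clusters.

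The wider fusion machinery was read from a list of 66 measured genes: proteins of the Munc18 family, NSF and its adaptors, Golgi and endoplasmic reticulum SNAREs, active zone proteins, Rab3 and Rab27 effectors, the exocyst and synaptic vesicle proteins. At an unadjusted p of 0.05 limma called 0 of the 66, and so did the methods' t-test. Of the 66 genes 42 (63.6 percent) lay below and 24 above WT, with a median of -0.18, where 49.6 percent of all transcript clusters lay below. The Golgi and endoplasmic reticulum SNAREs lay below in 9 of 12 and the active zone and priming proteins in 8 of 12. Vps33b, a Munc18 relative of endosomes and lysosomes, was the only one of the 66 without overlap, where 3.93 percent of all transcript clusters were. It was named after its values were seen, at 6.34, 6.27, 6.43 and 6.50 in KO against 6.69, 6.55 and 8.23 in WT. The difference of -0.77 rested in large part on WT replicate 3.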

How the data were processed

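The authors deposited log2 signals for 22198 transcript clusters on 7 arrays. Expression Console and MAS5 of Affymetrix are listed in the submitters' processing notes, GeneSpring in the methods of the study, and which of them made the values, the background correction and the genome build are not given in the sources used here. Values ran from 2.24 to 19.93, the upper limit on 6 arrays, and detection calls were not used, so signal over background was not known and the number of arrays limits the precision.

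Names came from the platform annotation (19565 transcript clusters with 1 symbol, 2633 unnamed). All 59 fusion gene symbols had 1 row each and were found in the RefSeq gene table of GRCm38.p6. Promoter sequences are those of RefSeq, same build. The members, gene lists and named genes were chosen with earlier results of these data known. Named in the text are a list of 19 core genes, members with an unadjusted p below 0.05 or without overlap, and for each subfamily the 3 brightest members and that with the smallest p.

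Array medians differed by 0.14, over the limit of 0.1, and values were quantile normalized. KO was set against WT over all transcript clusters by limma (version 3.58.1, R 4.3.3), with lmFit and eBayes, two-sided and without covariates, and Benjamini-Hochberg adjustment, and single values by an exact permutation test over 35 splits. What is called the methods' t-test is Student's test, two-sided and of equal variances, as the study's general statistics and the legend of its array results give it. For the arrays themselves the methods name GeneSpring only. The fit was tested on simulated data. What KO and WT arrays of equal replicate number share is not stated in the sources, and the pairs named here rest on the number alone. Deviations from the group means correlated at 0.16, 0.243 and 0.165 between equal numbers, and at -0.181 to 0.0233 between unequal ones. The replicate number as a fixed or random block was an alternative, as were no normalization, centring on the median, cyclic loess, filters at percentiles 25 and 50 of the mean signal, eBayes with trend and robust variances, array weights, the acinar score as a covariate and leaving out each array. A fit on the 4 arrays most alike (without WT replicate 3 and KO replicates 3 and 4) was added after the data were seen, as was the relation to the acinar score.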

Additional observations from a re-analysis of the deposited data

Results flagged for a closer look

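Among 40 groups of 4 KO values tested, those of the named genes and of the subfamily means, 2 held a value far from the other 3, and about 2 are expected by chance. For Stx18 in KO the gap took 0.851 of the whole range: KO replicate 4 was at 9.07, and the other KO arrays lay between 8.31 and 8.43. For Stx8 in KO it took 0.839, since KO replicate 2 was at 7.91 while the other KO arrays lay between 8.21 and 8.27.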

How the results depend on the processing

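The number of fusion genes at an unadjusted p of 0.05, 3 in the fit reported, was 1 with the values as deposited, with median centring, with trend and robust variances and with the acinar score as a covariate, and 0 without the transcript clusters below percentile 50 of the mean signal. With each array left out in turn it ran from 1 (without WT replicate 2, KO replicate 3 or KO replicate 4) to 4 (without KO replicate 2). Of all transcript clusters 484 passed that threshold, 311 without those below percentile 25, 177 without those below percentile 50, and 302 (without WT replicate 3) to 695 (without KO replicate 1) with single arrays left out, and 0 passed after adjustment under every alternative run. Of the 66 genes of the wider machinery 0 passed, 1 with median centring or array weights, 2 with the fixed replicate block, 4 on the 4 arrays most alike and 0 to 5 (without WT replicate 2) with single arrays left out. Genes without overlap were 2, and 4 with cyclic loess (6.78 percent, against 907 or 4.09 percent of all). With fewer arrays fewer have to be parted, and they were 17 of 59 (28.8 percent) on the 4 arrays most alike, where 6196 of all (27.9 percent) did not overlap, and 3 to 7 with single arrays left out, against 1594 to 2152 of all. With the replicate number as a fixed block 2 fusion genes and 579 of all passed, and as a random block 3 and 658. Under the fixed block Stx8 and Syt12 lost and Syt9 gained a call, the random block changed none, and neither changed another call among the named genes. The median difference ran from -0.02 (without WT replicate 3) to 0.14 (without KO replicate 4). Of the called genes none turned direction under any alternative run, but each lost its call under several, and the cause was not tested. The mean over the rows of a symbol was not run, since each symbol had 1 row. Array number and unknown signal over background limit the dim genes, such as Stx1a and Stx11.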
